A study of Rattus norvegicus with 15 samples.

Results

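The 62 genes described here are cytochrome P450 genes of the rat, measured in primary hepatocytes exposed to flutamide. They are all genes whose platform annotation symbol is Cyp followed by a digit, 69 in all, except Cyp1a1, Cyp1a2, Cyp1b1, Cyp2b1, Cyp3a2, Cyp3a23-3a1 and Cyp7a1. The whole table held 14506 genes, each read from the probe set of highest mean. Freshly isolated cells, labelled as hepatocytes, were seeded in microfluidic biochips, small chambers perfused with medium at 25 µl/min, and each biochip gave 1 Affymetrix array. The groups were 100 µM flutamide (4 arrays), 10 µM flutamide (6 arrays) and DMSO (5 arrays), all after 24 h of exposure under perfusion. Flutamide is an antiandrogen whose use is limited by liver injury. The labels used here do not say which biochips came from separate animals, so p-values cover the variation among biochips and no more. The titles number the biochips 20 to 27 (run 2: 2 arrays at 100 µM, 3 at 10 µM and 3 with DMSO) and 10 to 16 (run 1: 2, 3 and 2 arrays), and the labels do not say what the numbers stand for.

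Cytochrome P450 enzymes are haem proteins that insert an oxygen atom into their substrates, with electrons from NADPH-cytochrome P450 reductase and, for some reactions, cytochrome b5. In the liver, families 2 and 3 clear drugs and hormones, family 4 and the Cyp2j enzymes oxidise fatty acids, and further families make bile acids and cholesterol. Their transcripts are known to fall in cultured hepatocytes, and several depend on growth hormone and so differ between male and female rats. By subfamily, 25 of the genes were placed with drug metabolism, 16 with fatty acids, 6 with sterols, 6 with steroid hormones and 5 with vitamins, and 4 were left as other.

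Array 23 (10 µM) was unlike the rest: its correlations with them had a median of 0.962, and limma's array weight for it was 0.205. The weights of array 15 (100 µM, 0.427) and array 24 (10 µM, 0.549) were also low. The 8 hepatocyte markers averaged 11.7 to 12.0 on every array, with array 23 highest. The 12 macrophage (Kupffer cell) markers averaged 7.53 on array 23, against 5.74 to 6.97 on the other arrays. Where leaving out arrays 15, 23 and 24 moved the difference of a leading member by over 1.5 times, the value without them is given as well. Most values within a run, and those of the partner genes, are with all arrays.

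The promoters of 5 members are shown because these genes carry the results below: Cyp4a3 and Cyp4f1 were the members that passed a test, and Cyp2c22, Cyp2j3 and Cyp2j4 were among those with the largest differences at 100 µM. Each sequence is from RefSeq on GRCr8 and runs from 250 bases before the gene's start to 50 after it, 5′ to 3′ on the gene's strand. All 5 lie on the minus strand. Capitals mark a match on either strand to AGGTCA (core letters of nuclear receptor sites), TTGCNNAA (C/EBP), TGTTTAC (FOXA) or GTTAAT (HNF1), and no matches overlap in these 5.
Cyp4a3, chr5:134352187-134352486: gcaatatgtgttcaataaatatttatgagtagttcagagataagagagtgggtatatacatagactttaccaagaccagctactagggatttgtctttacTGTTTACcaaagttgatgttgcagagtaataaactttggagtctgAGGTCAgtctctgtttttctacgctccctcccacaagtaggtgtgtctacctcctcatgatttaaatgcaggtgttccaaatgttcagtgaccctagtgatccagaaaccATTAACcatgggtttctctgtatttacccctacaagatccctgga
Cyp4f1, chr7:12672504-12672803: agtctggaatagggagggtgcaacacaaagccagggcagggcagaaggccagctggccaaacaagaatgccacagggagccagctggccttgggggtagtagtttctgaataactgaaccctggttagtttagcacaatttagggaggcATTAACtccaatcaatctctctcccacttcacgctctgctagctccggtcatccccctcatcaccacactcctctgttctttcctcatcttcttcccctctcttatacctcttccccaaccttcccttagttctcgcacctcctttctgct
Cyp2j3, chr5:116360450-116360749: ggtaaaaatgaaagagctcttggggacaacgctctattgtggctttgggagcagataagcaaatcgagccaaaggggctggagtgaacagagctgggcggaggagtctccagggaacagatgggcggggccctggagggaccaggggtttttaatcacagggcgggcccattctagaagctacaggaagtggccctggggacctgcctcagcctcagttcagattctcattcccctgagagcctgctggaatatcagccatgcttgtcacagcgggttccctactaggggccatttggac
Cyp2j4, chr5:116322993-116323292: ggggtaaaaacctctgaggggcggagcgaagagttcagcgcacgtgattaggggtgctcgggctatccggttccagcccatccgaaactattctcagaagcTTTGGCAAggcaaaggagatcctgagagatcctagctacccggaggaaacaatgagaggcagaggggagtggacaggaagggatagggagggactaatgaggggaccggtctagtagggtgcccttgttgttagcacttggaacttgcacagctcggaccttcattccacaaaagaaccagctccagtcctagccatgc
Cyp2c22, chr1:248980718-248981017: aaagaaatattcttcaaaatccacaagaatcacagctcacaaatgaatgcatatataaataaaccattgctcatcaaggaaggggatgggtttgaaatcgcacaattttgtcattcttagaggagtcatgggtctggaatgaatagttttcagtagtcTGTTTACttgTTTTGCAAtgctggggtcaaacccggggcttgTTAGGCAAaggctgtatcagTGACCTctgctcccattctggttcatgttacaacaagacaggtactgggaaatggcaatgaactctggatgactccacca
The Cyp4a3 window holds 1 AGGTCA, 1 FOXA and 1 HNF1 match, and the Cyp4f1 window 1 HNF1 match. Cyp2c22 has 1 AGGTCA, 2 C/EBP and 1 FOXA match, Cyp2j4 has 1 C/EBP match, and Cyp2j3 has none of the 4. Promoters were found for 50 of the 62 members, and 1 was read for each. The shares over all promoters count every listed promoter, without reducing them to 1 for each gene. AGGTCA was present in 15 of these 50 (30.0%), against 16.2% of all 33469 promoters of 300 bases. The C/EBP letters were present in 14 (28.0%, against 10.6%), the HNF1 letters in 5 (10.0%, against 7.45%) and the FOXA letters in 3 (6.0%, against 3.78%). A match is a run of letters, not a bound site.

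Values are log2 intensities, and levels of different genes cannot be ranked because each probe set has its own response. The median of all values was 5.44, and 39 members reached it on at least 1 array. The 23 that stayed below it on every array were all 6 steroid genes, 4 of the 5 vitamin genes, 6 of 25 drug genes, 5 of 16 fatty acid genes, Cyp7b1 and Cyp2s1. Among the steroid genes, Cyp11a1, the cholesterol side-chain cleavage enzyme, averaged 4.34 ± 0.08 with DMSO, 4.32 ± 0.13 at 10 µM and 4.40 ± 0.13 at 100 µM (SD, n = 5, 6 and 4). Cyp17a1, which makes androgen precursors, averaged 4.59 ± 0.05, 4.57 ± 0.06 and 4.64 ± 0.21 in the same order of doses. The residual SD had a median of 0.23 over the members, against 0.19 over all genes. By class the median was 0.33 for drug, 0.24 for fatty acid, 0.28 for sterol and 0.14 for steroid genes.

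**Figure D1:**
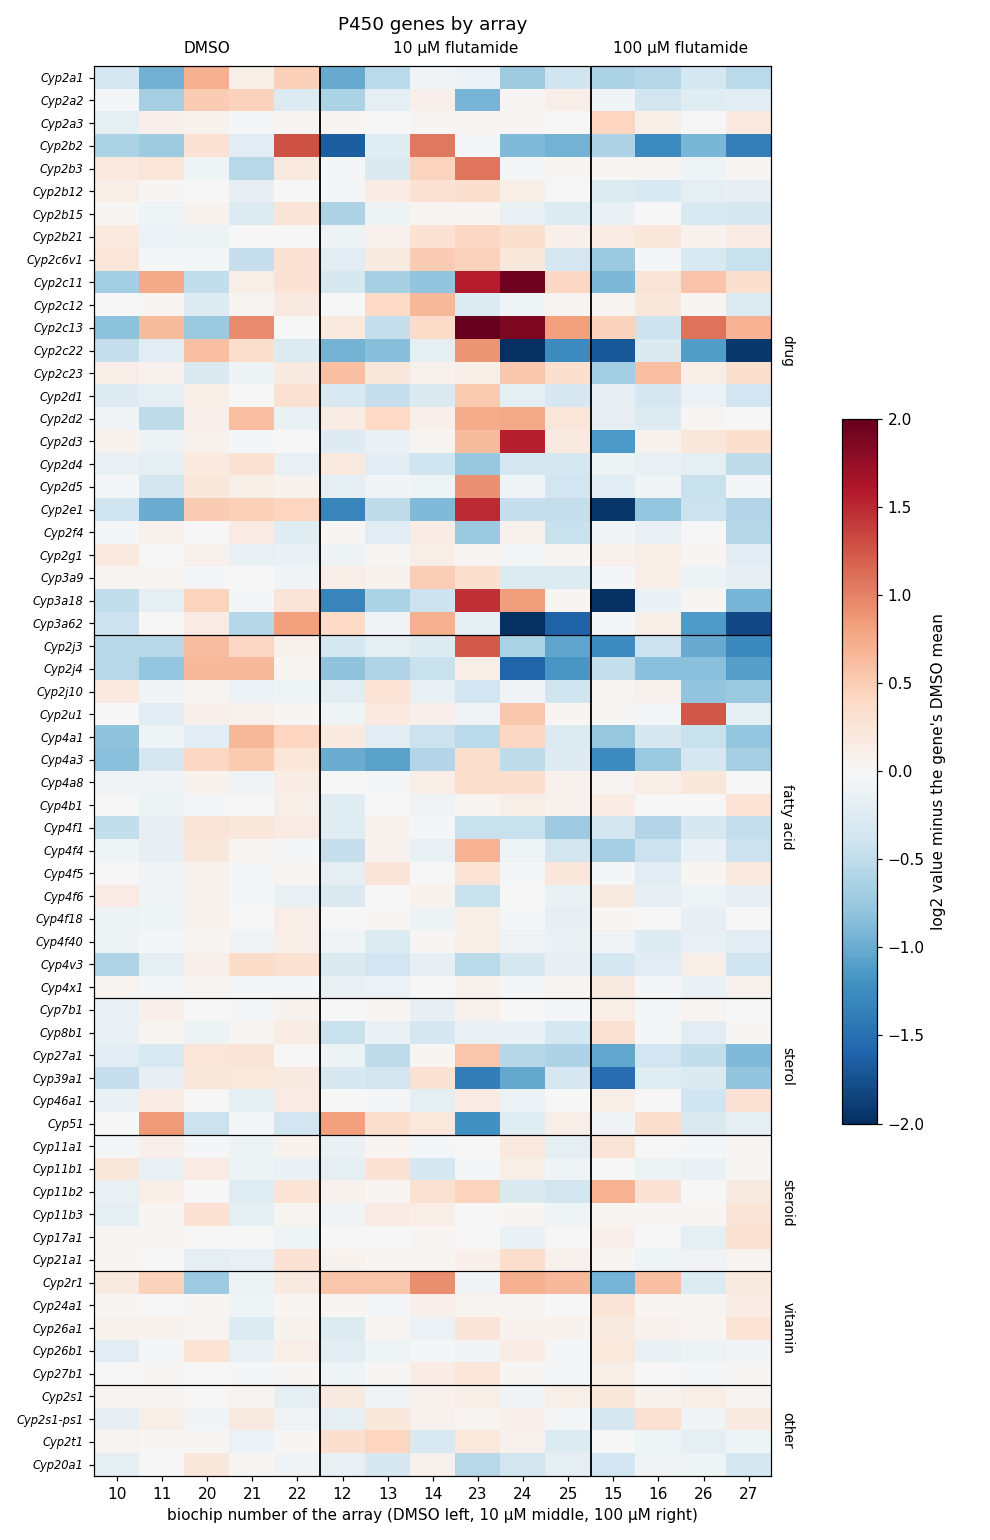
Log2 value of each member on each array, minus the gene's DMSO mean; rows are the 62 genes by class, columns the 15 arrays by dose, and colours saturate at 2. The lower values at 100 µM lie in the drug, fatty acid and sterol blocks, and the steroid block stays near 0. Array 23 differs from its neighbours in genes such as Cyp2e1 and Cyp2d5.

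At 100 µM, no member passed the test against DMSO after Benjamini-Hochberg adjustment over all genes (limma; lowest adjusted p 0.628, for Cyp4a3), and 0 of 14506 genes did (0%). Before adjustment, 11 of the 62 members had a p under 0.05, all of them lower at 100 µM and 0 higher, where 3.42% of all genes were lower and 3.43% higher by the same rule. They were 6 fatty acid genes (Cyp2j3, Cyp2j4, Cyp2j10, Cyp4a3, Cyp4f1, Cyp4f4), 3 drug genes (Cyp2c22, Cyp2e1, Cyp2b12) and 2 sterol genes (Cyp27a1, Cyp39a1). Leaving out 1 array at a time gave 3 to 13 lower and 0 to 2 higher, with the fewest lower without array 27. The median difference was -0.07 over the members and 0.02 over all genes, where 44.3% lay below 0. It was -0.19 in the drug class, -0.18 in the fatty acid class, -0.05 in the sterol class and 0.06 in the steroid class. With genes that were dim on every array left out, it was -0.22 over the members and -0.39 in the fatty acid class. Within run 2, with all genes, the median was -0.11 over the members, -0.27 in the drug and -0.29 in the fatty acid class. Within run 1 it was 0.01, -0.04 and -0.03 in the same order. The sterol median was -0.08 within run 2 and -0.12 within run 1.

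**Figure D2:**
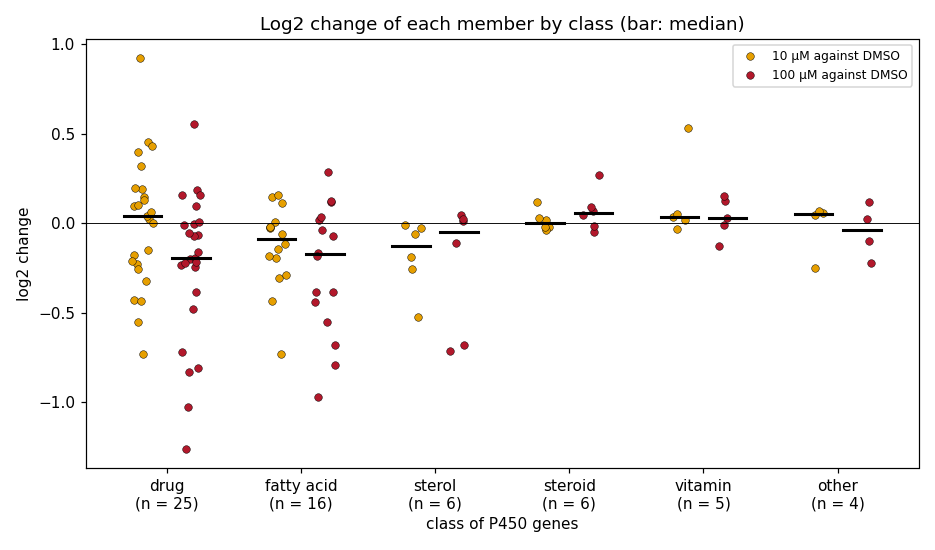
Log2 difference from DMSO of each member at 10 µM (left in each pair) and 100 µM (right), by class, with the class median as a bar. At 100 µM 19 of 25 drug genes and 11 of 16 fatty acid genes lie below 0, and the 6 steroid genes lie between -0.05 and 0.27.

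Among drug genes, Cyp2c22, which in the rat can hydroxylate retinoic acid, had values of 9.75, 11.15, 10.33 and 9.52 at 100 µM, against 10.98, 11.24, 12.05, 11.79 and 11.17 with DMSO. Array 16 lay within the DMSO range and the other 3 below it. The difference was -1.26 (SE 0.48, a 2.39-fold lower value, limma adjusted p = 0.686). Cyp2e1, which oxidises ethanol and small solvents, had 7.31, 8.47, 8.83 and 8.66 at 100 µM, against 8.85, 8.26, 9.76, 9.73 and 9.68 with DMSO. Its groups overlapped through DMSO array 11 of run 1 (8.26), and the difference was -0.83 (SE 0.36, limma adjusted p = 0.715). Cyp2b12, known from rat sebaceous glands and dim here, was lower on all 4 arrays at 100 µM (3.86 to 4.00) than on all 5 with DMSO (4.01 to 4.30), with a fitted difference of -0.23 (SE 0.09, limma adjusted p = 0.682). Cyp2b2, a phenobarbital-inducible gene, ranged from 5.18 to 5.92 at 100 µM and from 5.83 to 7.82 with DMSO (-1.03, SE 0.49, limma adjusted p = 0.736). Of further drug genes, Cyp3a18 stood at -0.72 (SE 0.41; -0.37 without arrays 15, 23 and 24), Cyp2d4 at -0.25 (SE 0.16), Cyp2d1 at -0.22 (SE 0.15), Cyp2a2 at -0.20 (SE 0.25) and Cyp2c13 at 0.55 (SE 0.43). Cyp3a9, Cyp2c12 and Cyp2b3 lay between -0.06 and -0.01. On the higher side the nearest to the threshold with all arrays was dim Cyp2a3, with 4.18 to 4.60 at 100 µM and 3.98 to 4.28 with DMSO (0.19, SE 0.09, limma adjusted p = 0.736). Without arrays 15, 23 and 24, Cyp2a3 stood at 0.11. In that setting Cyp2c23 was higher at an unadjusted p under 0.05 (0.36, SE 0.14, limma adjusted p = 0.502).

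Among fatty acid genes, Cyp2j3, an arachidonic acid epoxygenase, had 5.99, 6.82, 6.25 and 5.97 at 100 µM, against 6.70, 6.70, 7.88, 7.67 and 7.34 with DMSO. Array 16 overlapped the 2 run 1 DMSO arrays, and the difference was -0.97 (SE 0.38, limma adjusted p = 0.691). Its neighbour on chromosome 5, Cyp2j4, had 9.20, 8.83, 8.84 and 8.57, against 9.11, 8.90, 10.32, 10.32 and 9.71 with DMSO. All 4 values at 100 µM lay below the 3 run 2 DMSO arrays and around the 2 of run 1 (difference -0.79, SE 0.35, limma adjusted p = 0.726). Cyp4a3, a fatty acid omega-hydroxylase that PPARα induces, had 9.41, 9.95, 10.34 and 10.01 at 100 µM, against 9.85, 10.34, 11.10, 11.20 and 10.93 with DMSO (-0.68, SE 0.19, limma adjusted p = 0.628). In the related Cyp4a1 the values were 6.05, 6.49, 6.36 and 6.04 at 100 µM, against 6.0, 6.72, 6.60, 7.48 and 7.24 with DMSO (-0.55, SE 0.26, limma adjusted p = 0.736). Cyp4f1, an omega-hydroxylase of leukotrienes and fatty acids, lay between 7.20 and 7.46 at 100 µM and between 7.30 and 8.05 with DMSO (-0.44, SE 0.18, limma adjusted p = 0.698). The remaining members of the class with a p under 0.05 were Cyp4f4 at -0.39 (SE 0.17) and Cyp2j10 at -0.39 (SE 0.15). The dim Cyp4a8 and Cyp4b1 each stood at 0.12 (SE 0.09 and 0.08), and Cyp4v3 at -0.19 (SE 0.16). Cyp2u1 stood at 0.29 (SE 0.22), with array 26 at 5.53 where the other 3 arrays at 100 µM read 4.08 to 4.30.

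Among sterol genes, Cyp27a1, the mitochondrial sterol hydroxylase of the acidic bile acid pathway, read 6.49, 7.15, 7.04 and 6.65 at 100 µM, against 7.32, 7.23, 7.77, 7.79 and 7.54 with DMSO. The groups did not overlap, as for Cyp2b12, and this was so in the lower direction for 2 of 62 members and 0.931% of all genes. The difference was -0.68 (SE 0.23, limma adjusted p = 0.649), and -0.58 without arrays 15, 23 and 24. Cyp39a1, which hydroxylates oxysterols, had 6.40, 7.68, 7.62 and 7.13 at 100 µM, against 7.45, 7.76, 8.14, 8.13 and 8.10 with DMSO (-0.72, SE 0.33, limma adjusted p = 0.726). Array 15 gave its lowest value, and without that array the difference was -0.43. Cyp51, the lanosterol demethylase of cholesterol synthesis, stood at -0.11 (SE 0.25), Cyp8b1, which directs bile acids towards cholic acid, at 0.02 (SE 0.11), brain-type Cyp46a1 at 0.01 (SE 0.13) and dim Cyp7b1 at 0.04 (SE 0.07).

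In the steroid class the lowest p was that of Cyp11b2, the aldosterone synthase, at 0.27 (SE 0.17, 95% interval -0.10 to 0.63; 0.16 without arrays 15, 23 and 24), and Cyp11a1, Cyp11b1, Cyp17a1 and Cyp21a1 lay between -0.05 and 0.06. Of the vitamin genes, Cyp24a1, which inactivates vitamin D, stood at 0.13 (SE 0.07), and Cyp26a1, which breaks down retinoic acid, at 0.15 (SE 0.11). Cyp26b1, a further retinoic acid hydroxylase, stood at -0.01 (SE 0.11), and Cyp27b1, which activates vitamin D, at 0.03 (SE 0.08). Cyp2r1, the vitamin D hydroxylase of the liver, stood at -0.13 (SE 0.29), and at 0.20 (SE 0.21) without arrays 15, 23 and 24. Cyp2s1 was at 0.12 (SE 0.08) and the orphan Cyp20a1 at -0.23 (SE 0.13).

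**Figure D3:**
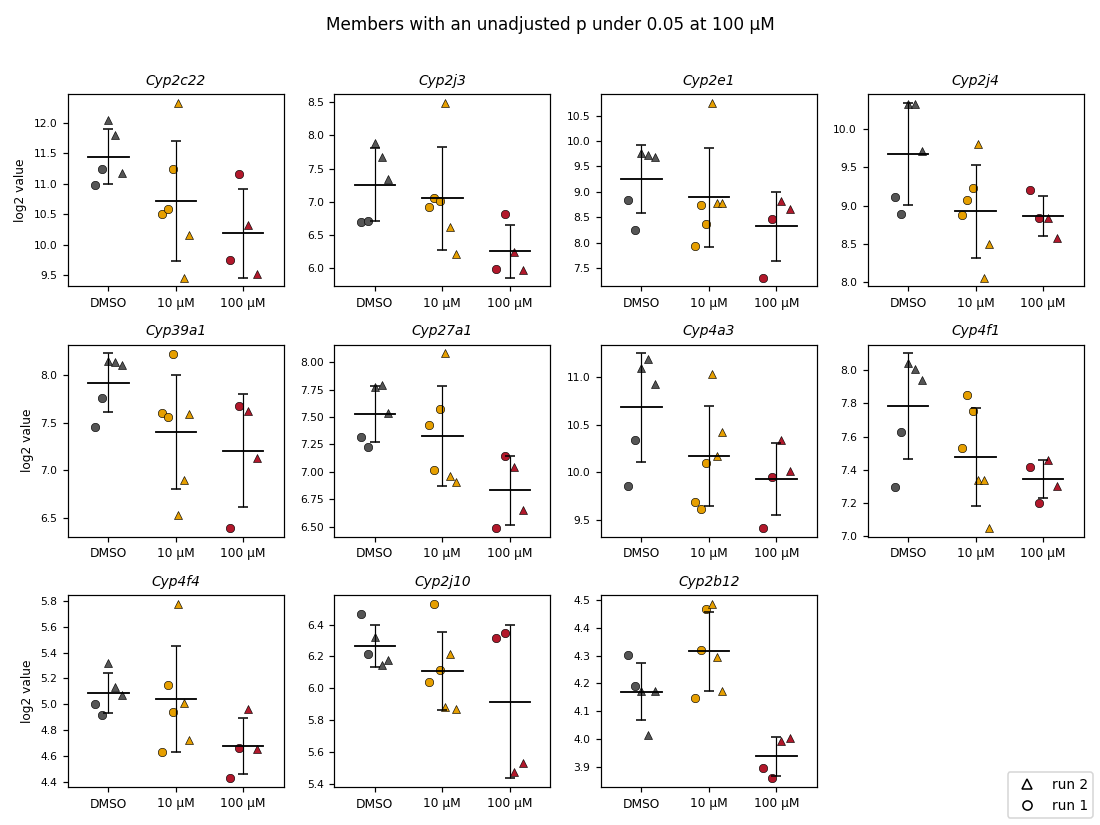
Log2 values by dose of the 11 members with an unadjusted p under 0.05 at 100 µM; points are arrays (triangles run 2, circles run 1), the long line is the mean and the bar 1 SD. The 100 µM mean lies below the DMSO mean in all 11 panels. In Cyp2e1, Cyp2j3, Cyp2j4, Cyp4a3, Cyp4f1, Cyp27a1 and Cyp39a1 the DMSO triangles lie above the DMSO circles, and in Cyp2c22 they overlap.

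At 10 µM, no member passed the adjusted test (limma; lowest adjusted p 0.447, for Cyp2d2), and 0% of all genes did. Before adjustment 5 members were lower (3.82% of all genes) and 2 higher (3.83% of all genes) at a p under 0.05. Leaving out 1 array at a time gave 1 to 8 lower and 1 to 4 higher, with the fewest lower without array 21. The median difference was -0.02 over the members and -0.00 over all genes; it was 0.04 in the drug, -0.09 in the fatty acid and -0.13 in the sterol class. With dim genes left out it was -0.15 over the members and -0.18 in the fatty acid class. Within run 2, with all genes, it was -0.00 in the drug, -0.13 in the fatty acid and -0.20 in the sterol class. Within run 1 it was 0.05, 0.06 and 0.00 in the same order.

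The largest difference was that of Cyp2c13, a male-specific steroid hydroxylase, which ranged from 6.37 over a median of 7.42 to 8.97 at 10 µM, against 6.0, 7.45, 6.07, 7.76 and 6.83 with DMSO (0.92, SE 0.39, limma adjusted p = 0.602). Arrays 23 and 24, at 8.97 and 8.70, were its highest, and without arrays 15, 23 and 24 the difference was 0.46. Cyp2d2, a debrisoquine-type drug hydroxylase, ranged from 7.29 over a median of 7.51 to 7.95 at 10 µM, against 7.13, 6.69, 7.29, 7.80 and 7.06 with DMSO (0.43, SE 0.14, limma adjusted p = 0.447). DMSO array 21 lay inside the range at 10 µM, DMSO array 20 held the same value as its lowest array, and the other 3 DMSO arrays lay below it. Cyp2j4 ranged from 8.06 over 8.97 to 9.80 at 10 µM, with a difference from DMSO of -0.73 (SE 0.31, limma adjusted p = 0.613). Cyp4a3 ranged from 9.61 over 10.13 to 11.04 (-0.44, SE 0.17, limma adjusted p = 0.548). Cyp2d4, the rat form found in brain, stood at -0.32 (SE 0.15), Cyp8b1 at -0.26 (SE 0.10) and Cyp20a1 at -0.25 (SE 0.12). Without arrays 15, 23 and 24, Cyp2d4 stood at -0.19 and Cyp20a1 at -0.13. Cyp2r1 stood at 0.53 (SE 0.26), and Cyp21a1 had the lowest p of the steroid class at 0.12 (SE 0.09; 0.07 without these 3 arrays). The difference of Cyp2c22 was -0.73 (SE 0.44) with a range of 9.46 to 12.32, where array 23 held the highest value and array 24 the lowest.

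Between 100 µM and 10 µM, no member and 0% of all genes passed the adjusted test (limma; adjusted p 0.930 for the members of lowest p). Before adjustment 7 members were lower at 100 µM (2.34% of all genes) and 1 was higher (2.65%). Cyp2b12 ran from 3.86 to 4.00 at 100 µM and from 4.15 over 4.31 to 4.49 at 10 µM (-0.38, SE 0.09). Cyp2d2 ran from 6.93 to 7.23 at 100 µM and from 7.29 to 7.95 at 10 µM (-0.50, SE 0.15). These 2 genes did not overlap between the doses, as was so in the lower direction for 0.324% of all genes. Cyp2j3 stood at -0.79 (SE 0.36), and at -0.46 without arrays 15, 23 and 24. Cyp2r1 stood at -0.66 (SE 0.28), Cyp2c6v1, a phenobarbital-responsive gene, at -0.51 (SE 0.20), Cyp27a1 at -0.49 (SE 0.22; -0.28 without these 3 arrays) and Cyp4f4 at -0.36 (SE 0.17). Without these 3 arrays, Cyp2r1 stood at -0.33, Cyp2c6v1 at -0.16 and Cyp4f4 at -0.14. Cyp8b1 was higher at 100 µM, by 0.28 (SE 0.11). Cyp11b2, Cyp2a3 and Cyp2t1 stood at 0.25, 0.16 and -0.17, the last 2 at 0.08 and -0.10 without the 3 arrays. The comparisons with DMSO use the same arrays, so they are not independent of this one. The class median of the drug genes was -0.20, and -0.04 without arrays 15, 23 and 24.

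Between the runs, with dose in the fit, Cyp4a3 was the only member to pass the adjusted test: it was 0.75 higher in run 2 (SE 0.15, a 1.69-fold higher value, limma adjusted p = 0.0352). In all, 79 of 14506 genes (0.545%) passed. In run 2 Cyp4a3 had 11.10, 11.20 and 10.93 with DMSO, 11.04, 10.17 and 10.42 at 10 µM, and 10.34 and 10.01 at 100 µM. In run 1 it had 9.85 and 10.34 with DMSO, 9.69, 9.61 and 10.09 at 10 µM, and 9.41 and 9.95 at 100 µM. The lowest run 2 array overlapped the highest of run 1. The call was lost when any of 10 of the 15 arrays was left out (DMSO 10, 11, 20, 21 and 22; 10 µM 12, 13 and 25; 100 µM 15 and 26), with adjusted p of up to 0.119 over all alternatives, and the difference remained between 0.67 and 0.98.

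Before adjustment 9 members were higher in run 2 (4.73% of all genes) and 4 lower (6.23%). Cyp2e1 had 8.66 over 9.26 to 10.75 in run 2 and 7.31 over 8.37 to 8.85 in run 1 (1.05, SE 0.27, limma adjusted p = 0.117). Cyp3a18, a male-biased testosterone hydroxylase, had 4.89 over 5.96 to 7.28 in run 2 and 3.56 over 5.33 to 5.69 in run 1 (1.02, SE 0.32, limma adjusted p = 0.214). Cyp2c11, the main male-specific P450 of rat liver, stood at 0.95 (SE 0.35) and Cyp2c13 at 0.93 (SE 0.33). For Cyp2c11 the difference between the runs was -0.08 within the DMSO group, 1.90 at 10 µM and 0.76 at 100 µM, and arrays 23 and 24 were its highest at 7.01 and 7.38. Without arrays 15, 23 and 24 the difference between the runs was 0.30 for Cyp2c11, 0.63 for Cyp2c13, 0.41 for Cyp3a18, 0.15 for Cyp2d3 and 0.73 for Cyp2e1. Cyp2d3, Cyp2a1 (a female-biased testosterone hydroxylase), Cyp2d2 and Cyp2d1 were higher in run 2 by 0.60, 0.44, 0.36 and 0.26. Lower in run 2 were Cyp3a62, found mainly in rat intestine, at -0.95 (SE 0.35), Cyp51 at -0.69 (SE 0.19), Cyp2j10 at -0.36 (SE 0.11) and the female-specific Cyp2c12, dim here, at -0.26 (SE 0.11). For Cyp3a62 the direction turned within the DMSO group, where run 2 was higher by 0.35. Of the fatty acid genes, 14 of 16 were above 0, with a median of 0.14, against 0.00 over all genes, where 49.2% lay below 0. By dose, the fatty acid median was 0.17 with DMSO (13 above 0), 0.09 at 10 µM (11) and 0.00 at 100 µM (8). With dim genes left out the medians were 0.23 for fatty acid genes, 0.18 for drug genes and 0.14 over the members. The male-biased Cyp2a2 stood at 0.17 (SE 0.20; 0.41 without the 3 arrays) and the female-biased Cyp3a9 at -0.20 (SE 0.10). The lowest p of the remaining classes belonged to Cyp11b2 (-0.19), Cyp26b1 (0.09) and Cyp2t1 (-0.10), the last 2 at 0.14 and -0.16 without the 3 arrays.

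**Figure D4:**
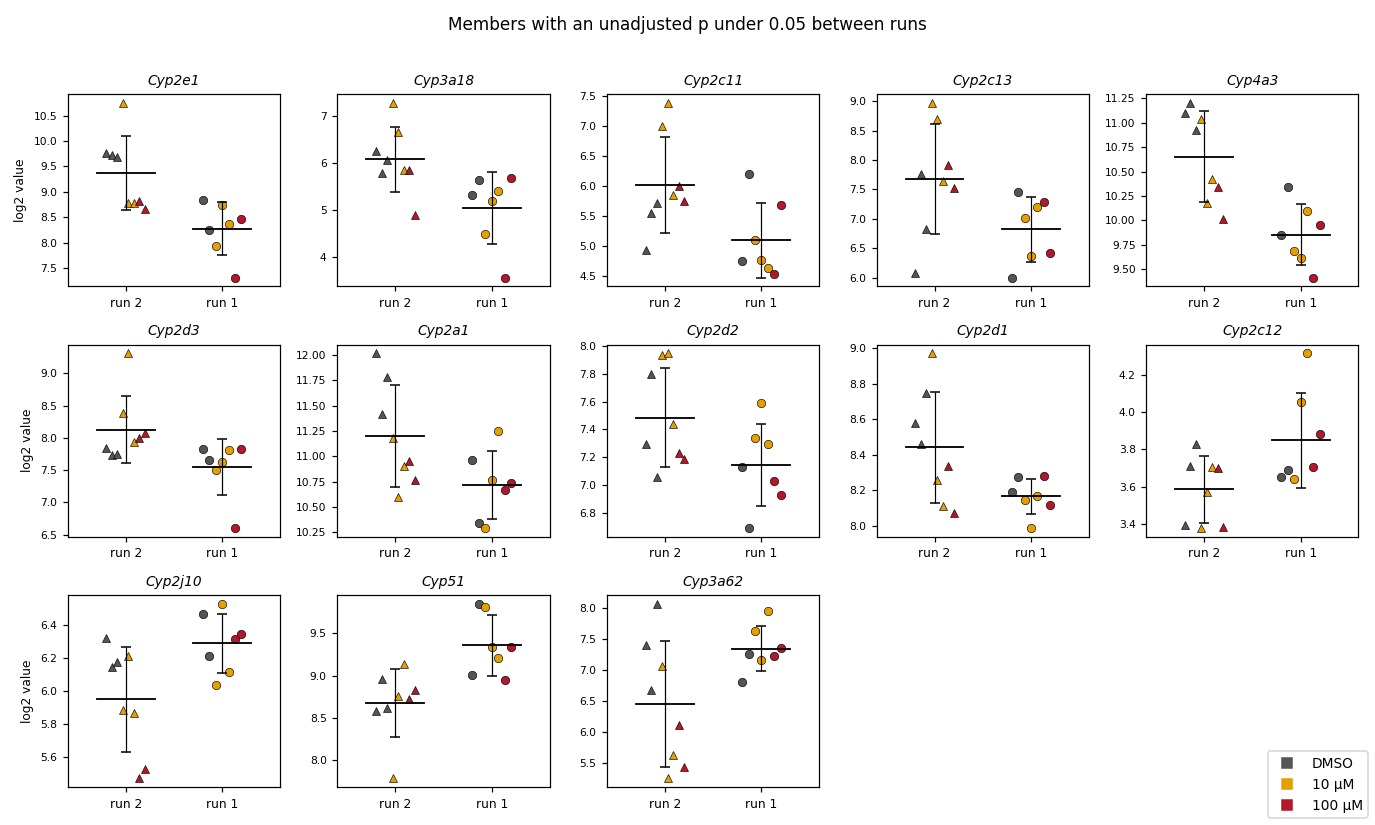
Log2 values by run of the 13 members with an unadjusted p under 0.05 between the runs; points are arrays coloured by dose, the long line is the mean and the bar 1 SD, with run 2 left. The run 2 mean lies above that of run 1 in 9 panels and below it in 4, and the highest run 2 points of Cyp2c11 and Cyp2c13 are 10 µM arrays.

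The dose differences were next read within each run. Within run 2, Cyp4f1 was the 1 member to pass the test: it fell by 0.75 on the log2 scale at 10 µM (SE 0.13, limma adjusted p = 0.0187), where 171 genes (1.18%) passed. Its run 2 values were 7.34, 7.34 and 7.05 at 10 µM, against 8.05, 8.01 and 7.94 with DMSO, with no overlap. Its run 1 values were 7.53, 7.85 and 7.75 at 10 µM, against 7.30 and 7.63 with DMSO, a difference of 0.25 (limma adjusted p = 1.00). The difference between the runs was -1.0 (SE 0.19) but did not pass after adjustment (limma adjusted p = 0.127), nor did that of any other member, where 0.0414% of all genes passed. It passed with array quality weights (-1.12, limma adjusted p = 0.0471), where 0.117% of all genes did. The call within run 2 was lost without DMSO array 20 (adjusted p = 0.0906) or 21, after renewed quantile normalization (0.0575), and without arrays 15, 23 and 24 together (0.0664).

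Without array 23, 3 further members passed within run 2 at 10 µM: Cyp2j4 (-1.83, limma adjusted p = 0.00456), Cyp2j3 (-1.21, adjusted p = 0.0282) and Cyp3a62 (-1.94, adjusted p = 0.0260), where 180 of 14506 genes did (1.24%). Cyp2j3 was also the 1 member to pass without arrays 15, 23 and 24 (-1.42, limma adjusted p = 0.0382), where 22 genes did (0.152%); array 25 is then alone at 10 µM in run 2 and is assumed to vary like the other arrays. With all arrays the run 2 differences of Cyp2j4, Cyp2j3 and Cyp3a62 were -1.33, -0.52 and -1.40, and none passed (limma). Within run 1 at 10 µM these genes stood at 0.06, 0.29 and 0.56. Without array 23 the run difference was -1.89 for Cyp2j4 and -2.50 for Cyp3a62, and neither passed (limma adjusted p = 0.0599 and 0.109). For Cyp2j3 the run difference was -1.72 without arrays 15, 23 and 24. It did not pass either, and it rests on array 25 alone at 10 µM in run 2. At 100 µM within run 2, 0 members passed with all arrays (0.0483% of all genes). Without array 23, which adds only to the estimate of the spread there, Cyp2j3 (-1.52) and Cyp2j4 (-1.41) passed, each at a limma adjusted p of 0.0231, where 43 genes did (0.296%). Cyp2c22 passed as well (-1.75, limma adjusted p = 0.0443) when arrays 15, 23 and 24 were all left out, where 114 genes did (0.786%). Without array 25, Cyp2c11 (1.79, limma adjusted p = 0.0386) and Cyp39a1 (-1.41, adjusted p = 0.0362) passed at 10 µM in run 2, where 608 genes did (4.19%), against 171 with all arrays. The 10 µM group of run 2 is then arrays 23 and 24 only, both of low weight. Without arrays 15, 23 and 24 these differences were 0.44 for Cyp2c11 and -0.54 for Cyp39a1.

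At 100 µM within run 2, 13 members were lower before adjustment (5.04% of all genes) and 0 higher (3.30%); within run 1 1 was lower (Cyp2b12; 1.77%) and 1 higher (Cyp2a3; 2.71%). The 13 included Cyp2a1 (-0.88), Cyp2b2 (-1.59), Cyp3a62 (-1.61), Cyp2j10 (-0.71) and Cyp4a1 (-0.91). At 10 µM within run 2, 9 were lower (9.22%) and 4 higher (5.34%), the higher ones being Cyp2c13 (1.55), Cyp2c11 (1.34), Cyp2d3 (0.77) and Cyp2b21 (0.31). Without arrays 15, 23 and 24 these 4 stood at 0.76, 0.44, 0.16 and 0.13. Within run 1 at 10 µM 0 were lower (1.54%) and Cyp2d2 was higher (0.49; 1.70%). The members with a run difference of the 100 µM value at an unadjusted p under 0.05 were Cyp3a62 (-1.87), Cyp2j4 (-1.42), Cyp2a1 (-0.93), Cyp2j10 (-0.70) and Cyp4f1 (-0.47), where 3.87% of all genes were lower. None was higher (2.21% of all genes), 0.00689% of all genes passed the adjusted test, and no member did (limma; lowest adjusted p 0.770). For 10 µM they were Cyp3a62 (-1.96), Cyp2j4 (-1.38), Cyp39a1 (-1.31), Cyp4f1, Cyp2a1 (-0.97), Cyp4v3 (-0.72) and Cyp2d4 (-0.62), with Cyp2c11 (1.98) the other way. Without arrays 15, 23 and 24 the values were 1.08 for Cyp2c11 and -0.72 for Cyp39a1. The share of all genes was 6.68% lower and 3.56% higher.

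Within the DMSO group, read from the fit of dose within run to all 15 arrays, 7 members were higher in run 2 before adjustment (5.36% of all genes) and 0 lower (3.52%). They were Cyp2e1 (1.17), Cyp2j4 (1.11), Cyp2a1 (1.09), Cyp4a3 (0.98), Cyp4a1 (0.75), Cyp4v3 (0.66) and Cyp4f1 (0.54), and 0 passed after adjustment (limma; 0.248% of all genes). Of the 7, Cyp2a1, Cyp2j4, Cyp4f1 and Cyp4v3 are among the 7 lower members in the run difference at 10 µM. Both comparisons share the DMSO arrays, so the values are given side by side only. Markers of other cells in the same DMSO arrays stood as follows. The 5 endothelial markers averaged 4.91, 4.89 and 4.94 in run 2, against 4.51 and 4.49 in run 1, and the 12 macrophage markers 6.38, 6.97 and 6.01, against 6.64 and 6.18. The endothelial means did not overlap between the runs and the macrophage means did. Of the 5 endothelial markers, 4 stayed under the median of all values on every array, and only Pecam1 overlapped between the runs. Of the macrophage list, Cd68 stood at 7.18, 7.28 and 7.52 in run 2, against 10.15 and 9.87 in run 1. It was the only gene of that list whose values did not overlap. Cd163 read 7.06, 8.00 and 5.87 in run 2, against 6.62 and 5.68 in run 1. Adgre1 read 5.09, 5.61 and 4.58, against 4.67 and 4.03. The part of these other cells in the P450 values was not tested.

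**Figure D5:**
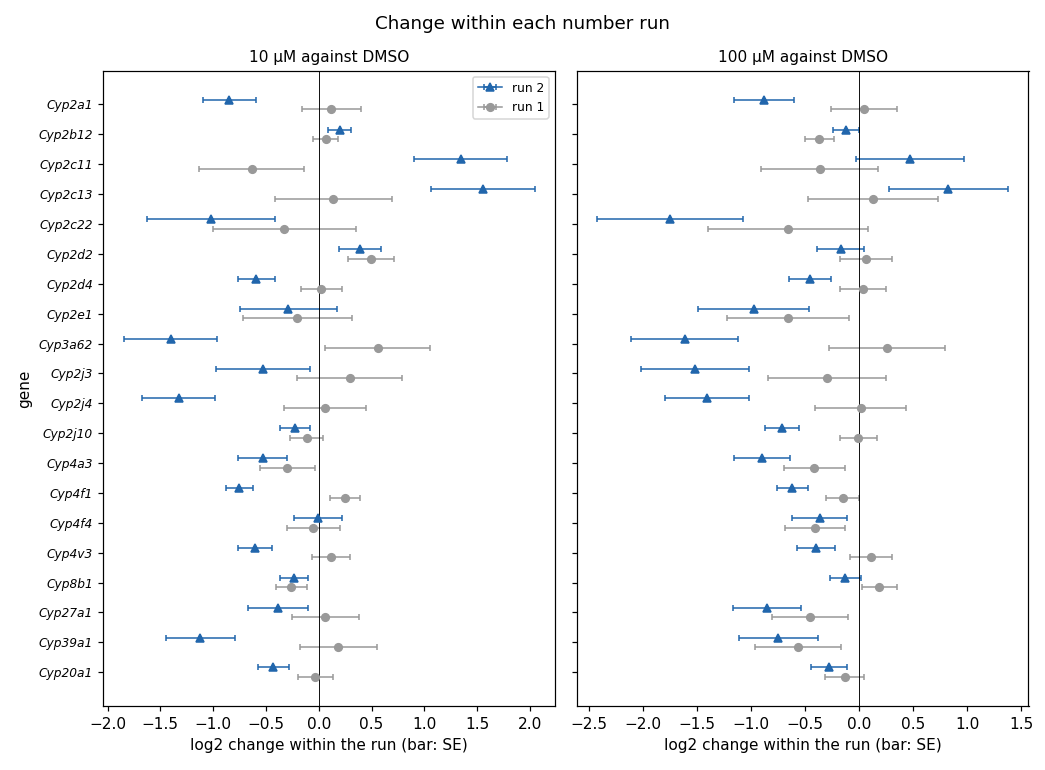
Log2 difference from DMSO within each run (triangles run 2, circles run 1; bar 1 SE) at 10 µM (left) and 100 µM (right), for the 20 genes with an unadjusted p under 0.05 against DMSO at either dose or in the run difference of either. In run 2 Cyp2j4, Cyp3a62 and Cyp4f1 lie below 0 at both doses.

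The sex-biased members give a view of the growth hormone-dependent genes. Of the 4 male-biased genes measured (Cyp2c11, Cyp2c13, Cyp2a2, Cyp3a18), Cyp2c13 was higher at 10 µM before adjustment and 0 had an unadjusted p under 0.05 at 100 µM. At 100 µM, Cyp2c11 had 4.53, 5.69, 6.0 and 5.74, against 4.76, 6.20, 4.94, 5.55 and 5.72 with DMSO, a difference of 0.15 (SE 0.45, 95% interval -0.81 to 1.12), and 0.36 without arrays 15, 23 and 24. Of the 3 female-biased genes (Cyp2a1, Cyp2c12, Cyp3a9), Cyp2a1 stood at -0.48 (SE 0.24) at 100 µM and -0.43 (SE 0.22) at 10 µM. Its values were 10.67 to 10.95 at 100 µM and 10.34 to 12.02 with DMSO. Cyp2c7, Cyp4a2 and Cyp19a1 are not analysed here.

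Genes that work with these enzymes were read from the same fit. Of 9 electron donors, 0 passed at either dose; Cyb5a, cytochrome b5, stood at -0.47 at both 100 µM (SE 0.14, limma adjusted p = 0.649) and 10 µM (SE 0.13, limma adjusted p = 0.350). Within run 2 Cyb5a fell by 0.77 on the log2 scale at 10 µM (limma adjusted p = 0.0199), to 10.24, 10.19 and 10.28, against 11.06, 10.96 and 10.99 with DMSO. In that comparison 1.18% of all genes passed. The run difference of the 10 µM value passed for none of the 9 electron donors (limma), where 0.0414% of all genes did. The lowest p there was that of Cyb5a. Por, the P450 reductase, had 7.86, 7.90, 7.66 and 7.46 at 100 µM, against 7.95, 8.02, 8.83, 9.05 and 7.91 with DMSO (-0.61, SE 0.27, limma adjusted p = 0.723). Of 7 haem synthesis genes none passed; the rate-limiting Alas1 stood at -0.16 (SE 0.20) at 100 µM, and Fech, which inserts the iron, at -0.48 (SE 0.20) at 10 µM.

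Of 20 regulators, 0 passed at either dose, with 5 lower at 100 µM (3.42% of all genes) and 4 lower at 10 µM (3.82%) before adjustment. Nr1i2 (PXR) stood at -0.43 (SE 0.13) at 100 µM and Nr1i3 (CAR) at 0.22 (SE 0.16). Ppara had 5.30, 6.68, 6.77 and 5.81 at 100 µM, against 7.26, 7.11, 6.62, 6.55 and 6.23 with DMSO (-0.63, SE 0.30, limma adjusted p = 0.728). Hnf4a, a master factor of hepatocytes, stood at -0.62 (SE 0.20, limma adjusted p = 0.439) at 10 µM. Within run 2 it fell by 1.14 on the log2 scale (limma adjusted p = 0.0137), to 7.61, 7.43 and 7.83, against 8.92, 8.81 and 8.56 with DMSO. In that comparison 1.18% of all genes passed. The run difference of the 10 µM value passed for none of the 20 regulators (limma), where 0.0414% of all genes did. The lowest p there was that of Hnf4a.

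Between the runs, the sterol synthesis genes stood beside Cyp51: 16 of 17 lay below 0 for run 2 against run 1 (49.2% of all genes), 12 of them at an unadjusted p under 0.05 (6.23%), and Fdps, which makes farnesyl diphosphate, fell by 0.63 on the log2 scale (SE 0.11, limma adjusted p = 0.0224). The list's median was -0.36, against 0.00 over all genes. Of 17 PPARα targets, 8 were higher in run 2 before adjustment (4.73% of all genes) and 0 passed (0.545%), with a median of 0.29; Angptl4 came nearest, at 0.70 (SE 0.15, limma adjusted p = 0.0564). At 100 µM, 3 of these 17 were lower (3.42% of all genes) and 0 higher (3.43%) before adjustment, and the lowest p was that of Acadvl, a mitochondrial fatty acid dehydrogenase (-0.53, SE 0.16, limma adjusted p = 0.649).

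Beside the values of array 23, the macrophage markers stood as follows: all 12 were measured, and 9 of them had their highest value of the 15 arrays there. The means of the hepatocyte markers (12.0, 5 of 8 highest there), stellate markers (5.73), endothelial markers (5.07) and lymphocyte markers (4.50) were also highest on array 23, and that of the cholangiocyte markers (5.39) was lowest. The macrophage mean ran from 5.74 to 6.43 at 100 µM, from 5.80 to 7.53 at 10 µM and from 6.01 to 6.97 with DMSO. The 8 stellate cell markers averaged 5.38 to 5.49 at 100 µM, 5.30 to 5.73 at 10 µM and 5.34 to 5.48 with DMSO, with 4 under the median of all values on every array. For 5 endothelial markers the range was 4.44 to 4.74, 4.36 to 5.07 and 4.49 to 4.94 in the same groups, for 4 cholangiocyte markers 5.49 to 5.66, 5.39 to 5.77 and 5.46 to 5.62, and for 5 lymphocyte markers 4.38 to 4.49, 4.31 to 4.50 and 4.27 to 4.49. Of these, 4 endothelial, 3 cholangiocyte and 4 lymphocyte markers stayed under the median of all values on every array. In these bulk samples, fewer cells of a type and less RNA per cell cannot be told apart, and the part of other cells in the P450 values was not tested.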

How the data were processed

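Expression was read from the log2 values that the authors deposited, 1 column per array. RMA and Partek are named in the submitters' processing notes without a version or an order of steps, and nothing further was normalized. Arrays have no read depth, so their number limits the precision. Of 29214 probe sets, 15310 held 1 gene symbol, 13904 without a single name were left out, and 14506 genes remained. Columns of other samples numbered 0. limma 3.58.1 in R 4.3.3 (lmFit, eBayes) fitted dose and run to all 15 arrays (11 residual degrees of freedom), with Benjamini-Hochberg adjustment over all genes at 0.05; a fit with dose by run gave the values within runs. Classes, partner lists and members were chosen with earlier results of these data known. Named genes were, per comparison, those that passed, the 5 largest differences each way at an unadjusted p under 0.05 (at least 3 each way), the lowest p of each class, and a fixed set; others named were chosen after their values were seen. Probe sets of close relatives (Cyp2c, Cyp2d, Cyp2j, Cyp4a) can share target sequence, which was not tested. The method was tested on simulated data. Alternatives were the run as no term or a random block, renewed quantile normalization, array weights, leaving out dim genes, probe set means, another eBayes prior, and leaving out arrays.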

Additional observations from a re-analysis of the deposited data

Results flagged for a closer look

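In 13 of 186 groups of a gene and dose, 1 array stood apart from the rest of its group by Dixon's test at its 95% critical value, where about 1 in 20 (9.3) is reached by chance. On array 23 (10 µM), Cyp2e1 read 10.75 (other arrays 7.93 to 8.79), Cyp2d1 8.97 (7.99 to 8.26) and Cyp2d5 7.57 (6.26 to 6.59). Of the 12 macrophage markers, 9 were highest on that array, as were 5 of the 8 hepatocyte and 4 of the 8 stellate markers. The part of these cells in the values was not tested. On array 26 (100 µM), Cyp2u1 read 5.53 (4.08 to 4.30) and Cyp2b3 4.78, where the other 3 arrays hold the same deposited value of 4.89. On array 24 (10 µM), Cyp21a1 read 3.73 (3.41 to 3.48) and Cyp17a1 4.46 (4.57 to 4.62). On array 27 (100 µM), Cyp11b3 read 4.06 (3.83 to 3.84). In the DMSO group, array 21 was low for Cyp26a1 at 4.52 (4.85 to 4.87), Cyp27b1 at 5.05 (5.09 to 5.11) and Cyp2t1 at 5.43 (5.56 to 5.59), and array 22 for Cyp17a1 at 4.51 (4.60 to 4.63) and Cyp2s1 at 4.60 (4.80 to 4.85).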

How the results depend on the processing

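No paired analysis was possible because the title numbers are not shared between groups. Of 454 values of named genes under the other settings, 451 kept their direction; the 3 that turned were all in a separate fit to the 5 DMSO arrays alone, run 2 against run 1: Cyp11b2 0.016, Cyp2c11 -0.076 and Cyp3a62 0.35. With 1 array left out, 989 of 990 kept it, and Cyp20a1 reached 0.016 in the run difference of the 100 µM value (range -0.30 to 0.016). At 100 µM against DMSO, members with an unadjusted p under 0.05 numbered 3 to 13 lower and 0 to 2 higher with 1 array left out, and 1 was higher with no run term, with the run as a random block, with another eBayes prior, and without arrays 15, 23 and 24. At 10 µM they numbered 1 to 8 lower and 1 to 4 higher with 1 array left out, 3 lower with dim genes left out or the run as a random block, and 1 higher with no run term, with a random block or without the 3 arrays. Leaving out dim genes took the 23 dimmest members away and gave medians of -0.22 (all members) and -0.39 (fatty acid) at 100 µM, -0.15 and -0.18 at 10 µM, -0.19 (all members) between the doses, and 0.14, 0.18 (drug) and 0.23 (fatty acid) between the runs. Without the 3 arrays the drug median between doses was -0.044, and with 1 array left out the steroid median there was -0.015 to 0.10. Between the runs, members passing the adjusted test (limma) were 0 to 1 with 1 array left out (0.255% to 0.889% of all genes). They were 0 in the separate DMSO fit (0.11%) and 0 without the 3 arrays (0.689%). Before adjustment, 1 was lower in the separate DMSO fit, whose spread comes from 5 arrays, and 5 were higher without the 3 arrays. Within run 2, members passing at 10 µM were 0 to 4 with 1 array left out (0.103% to 4.19% of all genes). They were 3 with array weights (1.63%) and 0 after renewed quantile normalization (1.17%). At 100 µM they were 0 to 2 with 1 array left out (at most 0.296%) and 2 with array weights (0.662%). For the run difference at 10 µM, 1 passed with array weights (0.117%). The causes were not tested.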
